A study of Saccharomyces cerevisiae with 24 samples.

Results

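The phosphate response genes of budding yeast are the genes by which the cell senses, scavenges, imports and stores inorganic phosphate. The set described here holds 10 of them, listed by gene symbol and looked up in the platform annotation: PHO3, PHO4, PHO5, PHO8, PHO80, PHO81, PHO84, PHO89, SPL2 and VTC3. They are 10 of the 5449 yeast genes on the array, and each is measured by its own probe set.

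In this pathway the transcription factor Pho4 switches on the phosphate genes when phosphate is scarce. The cyclin Pho80, with the kinase Pho85, phosphorylates Pho4 and keeps it out of the nucleus in rich medium, and Pho81 inhibits that kinase during starvation. The targets include secreted acid phosphatases that free phosphate from outside molecules, high-affinity transporters of the plasma membrane, and the complex that stores phosphate as polyphosphate in the vacuole.

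RNA was measured on 24 Affymetrix Yeast 2.0 arrays, from 4 strains at 2 times with 3 cultures each. The wild type was the laboratory strain BY4741, and the other strains lacked PBF1, PBF2 or both genes; these encode related Myb-type proteins, also called Tod6 and Dot6, which bind promoters of ribosome biogenesis genes. Each culture grew at 25 °C and was then divided, so that cells of the same culture gave a sample before the shift (0 min) and a sample after 20 min at 37 °C. The labels name no separate clones of a deletion strain, so p-values measure the spread between cultures as deposited, and they give no medium or phosphate concentration.

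The values are MAS5 signals, which the authors' software scaled to a common mean on every array, so a fold change is relative to the bulk of the RNA on that array. The number of arrays limits the precision, and signals of different probe sets are not on a common scale. The median signal of the yeast genes was 453 to 572 per array, and 96.7% to 99.1% of them were above the array's background, the 95th percentile of the probe sets for another yeast. The deleted genes matched the labels: TOD6 read 575, 466 and 351 in the wild type at 0 min and 0.336 to 8.09 on the arrays of strains lacking it. DOT6 read 849, 778 and 946 in the wild type at 0 min and 0.466 to 11.9 on the arrays of strains lacking it. URA3, a marker gene absent from BY4741, read 1886, 1737 and 1746 in the double deletion at 0 min and 846, 922 and 695 at 20 min, and at most 6.90 in the other strains. Every double deletion array carried the URA3 signal and no array of another strain did, so the marker and the loss of both genes cannot be told apart in any comparison below that involves the double deletion. The mating-type a genes MFA1, MFA2, STE2, BAR1 and AGA2 were above background on all 24 arrays, as BY4741 is an a strain. Of the alpha-specific genes, MF(ALPHA)1 read 1.25 to 13.8 and was above background on 2 arrays. MF(ALPHA)2 read 7.22 to 31.9 and was above background on 23 arrays. STE3 read 20.4 to 124 and SAG1 114 to 214, and both were above background on all 24 arrays, as the a genes were.

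All 10 phosphate genes were above background on all 24 arrays, and all 10 passed the filter on low signals (mean log2 signal above 2.35). The plot of signals by strain and time shows 3 kinds of behaviour. The acid phosphatase genes PHO5 and PHO3 and the storage gene VTC3 fell steeply at 37 °C in every strain. PHO5, PHO89 and, at 20 min, SPL2, PHO80, VTC3 and PHO84 were lower in the double deletion than in BY4741, while PHO4 and PHO8 did not pass the test in any comparison of strains or times.

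**Figure D1:**
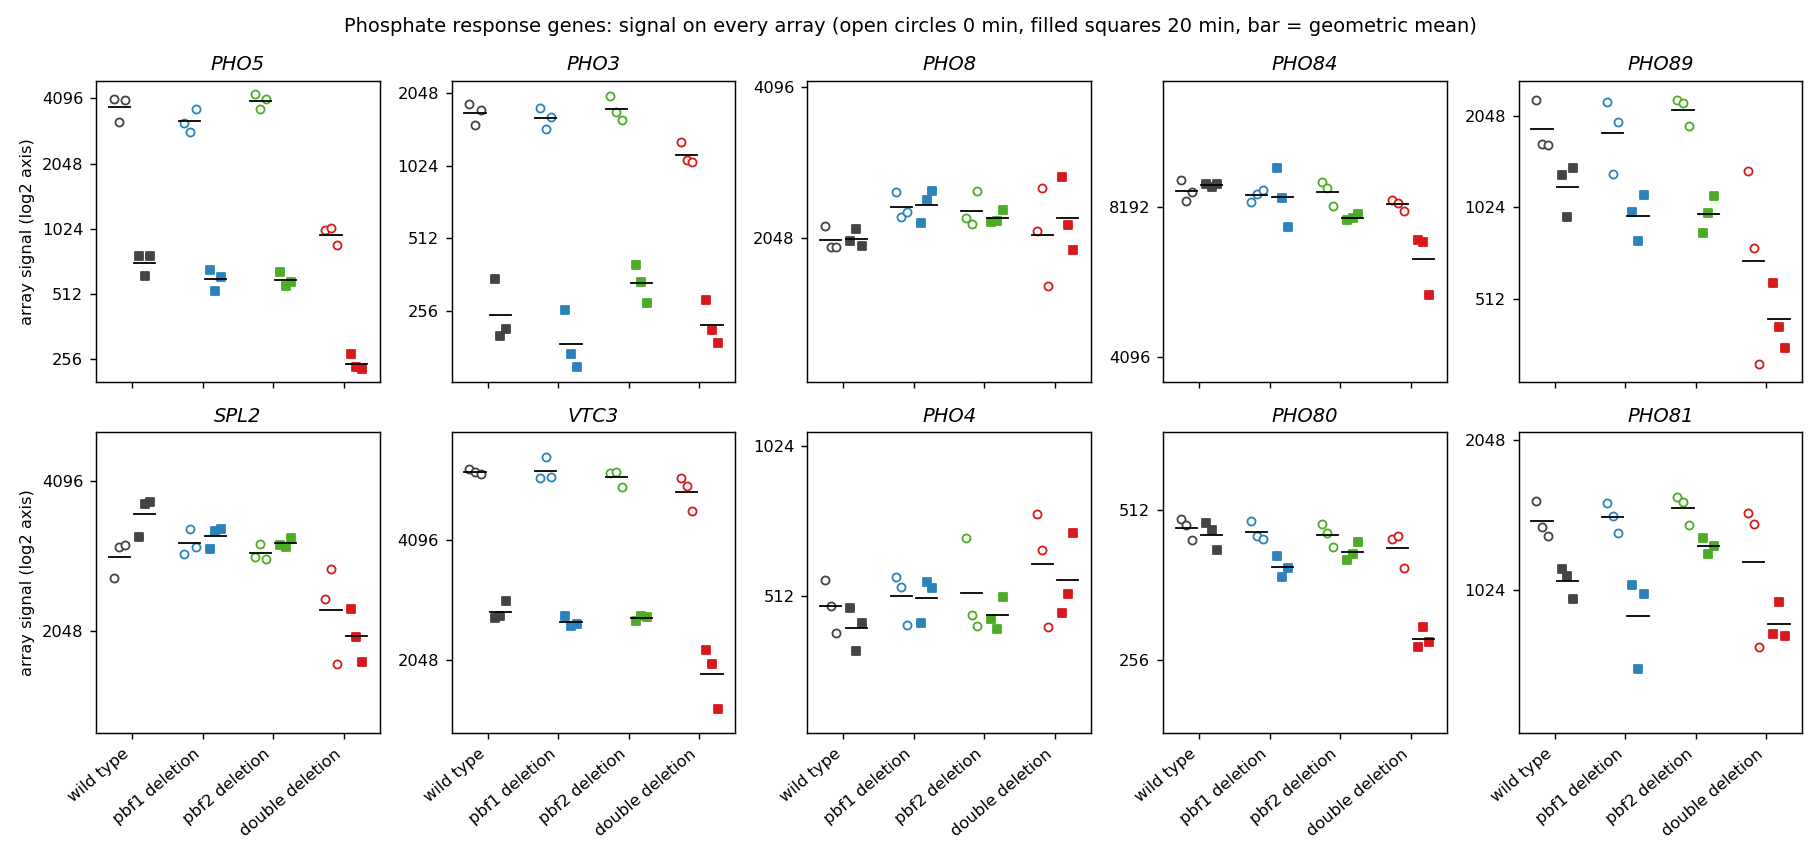
MAS5 signal (log axis) of each of the 10 phosphate response genes on all 24 arrays, by strain, with open circles for 0 min, filled squares for 20 min at 37 °C and bars for the geometric mean of 3 cultures. PHO5 at 0 min is 2857 to 4286 in the wild type and the single deletions and 858 to 1035 in the double deletion.

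The first comparison asks how heat shock changed the phosphate genes in the wild type. There 4 of the 10 genes fell (PHO3, PHO5, VTC3 and PHO81), 1 rose (SPL2) and 5 did not pass the test at an adjusted p of 0.05. Over all 5395 genes tested, limma called 29.7% lower and 51% higher after heat shock, so a call by itself is common in this contrast. The median log2 change of the 10 genes was -0.27, and that of all genes tested was 0.27.

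PHO5 encodes the main phosphate-repressible acid phosphatase, secreted into the cell wall space. Its signal in the wild type was 4079, 3190 and 4019 at 0 min and 768, 618 and 769 at 20 min. The lowest array at 0 min was over 4 times the highest at 20 min, so the groups lay far apart. The log2 change was -2.39 ± 0.12 (SE, n = 3 cultures per time), a 5.23-fold drop (limma adjusted p = 1.29e-13), and the change within each culture was -2.41, -2.37 and -2.39.

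PHO3, next to PHO5 on its chromosome, encodes an acid phosphatase of very similar sequence that is known to respond to thiamine rather than to phosphate. How far the probe sets of these similar genes read each other's RNA was not tested. The PHO3 signal in the wild type was 1846, 1505 and 1740 at 0 min and 346, 202 and 217 at 20 min. All 3 arrays after the shift were below all 3 before it, with the first culture the highest of them. The fall was 6.83-fold, with a log2 change of -2.77 ± 0.20 (adjusted p = 5.83e-11). PHO8, the vacuolar alkaline phosphatase, is the phosphatase gene of the set that did not pass: its log2 change was 0.01 with a 95% interval of -0.25 to 0.27.

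VTC3 encodes a subunit of the vacuolar transporter chaperone complex, which makes polyphosphate. Wild type arrays read 6152, 6039 and 5975 at 0 min and 2608, 2637 and 2871 at 20 min. The groups were well separated, and the change was -1.16 ± 0.09 in log2, a 2.24-fold drop (adjusted p = 1.99e-10). The falls of PHO5, PHO3 and VTC3 passed the test in all 4 strains under every alternative processing tried.

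The transporter genes moved less. PHO84 encodes the high-affinity proton-coupled phosphate transporter, the main importer in starved cells. It read 9239, 8411 and 8772 at 0 min and 9094, 8960 and 9073 at 20 min in the wild type. These ranges overlapped, and the log2 change was 0.04 ± 0.09 (adjusted p = 0.679). This value depended on the scaling, at 0.39 (adjusted p = 0.00034) after quantile normalization and -0.96 (adjusted p = 0.0316) when arrays were centred on the poly(A) control RNAs spiked into the samples (spike-in centring).

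PHO89 encodes the sodium-coupled phosphate transporter. Its wild type signals were 2312, 1660 and 1647 at 0 min and 1310, 955 and 1377 at 20 min. All arrays after the shift were lower, but the cultures spread widely, and the log2 change of -0.63 ± 0.33 did not pass (adjusted p = 0.0915). It passed under each of the 4 other scalings, with log2 changes of -1.63 to -0.69.

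SPL2 encodes a small protein, itself induced by low phosphate, that is known to restrain low-affinity uptake. It read 2618, 3016 and 3053 at 0 min and 3155, 3677 and 3723 at 20 min in the wild type. Every array after the shift was above every array before it, by 0.28 ± 0.12 in log2 (adjusted p = 0.0315). The rise was 0.10 (adjusted p = 0.42) after median centring and turned to -0.03 with the hybridization controls and -0.72 with the spike-in controls. It also lost its call without the first wild type culture at 0 min (adjusted p = 0.142), and without the second (0.0944) or the third (0.103) at 20 min.

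Among the regulators, PHO81, the inhibitor of the Pho80 and Pho85 kinase, read 1545, 1369 and 1316 at 0 min and 1126, 1094 and 984 at 20 min in the wild type. The ranges did not overlap, and the log2 change was -0.40 ± 0.17 (adjusted p = 0.0329). The call was lost without the first (adjusted p = 0.113) or second (0.0517) array at 0 min and without the second (0.0525) or the third (0.103) at 20 min. PHO80 changed by -0.04 ± 0.07 (adjusted p = 0.58), but it was called lower under the 4 other scalings, at -0.23 to -1.05. PHO4, the transcription factor, changed by -0.14, with a 95% interval of -0.50 to 0.22.

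**Figure D2:**
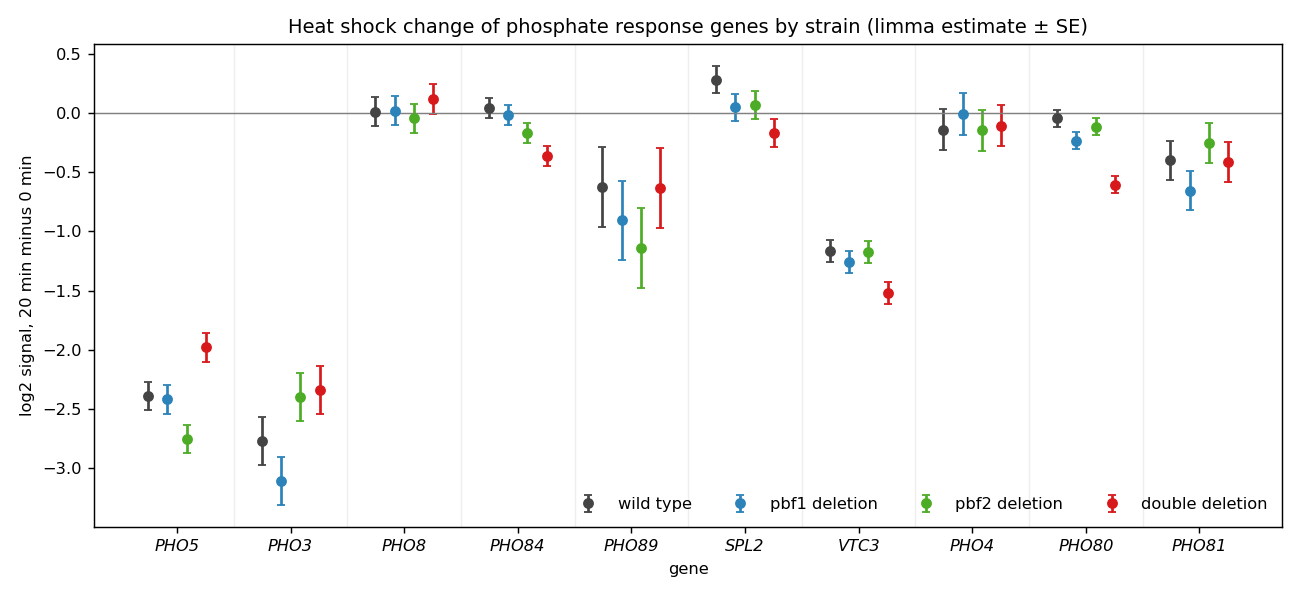
Log2 change of each of the 10 genes from 0 to 20 min at 37 °C in the 4 strains. Bars are ± SE from the limma fit. PHO3, PHO5 and VTC3 lie between -3.10 and -1.16 in all strains, while PHO4 and PHO8 lie near 0.

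The same comparison within each deletion strain gave falls of the same 3 genes. In the pbf1 deletion 6 of the 10 genes fell and 0 rose, where 30.4% and 51.2% of all genes did. An unadjusted p under 0.05 was also reached by 6 of the 10, and by 4464 of all 5395 genes. PHO5 went from 3143, 2857 and 3674 to 661, 530 and 617, and its log2 change was -2.42 (adjusted p = 9.42e-14). PHO3 changed by -3.10, VTC3 by -1.26, PHO81 by -0.66 (adjusted p = 0.00115) and PHO80 by -0.23 (adjusted p = 0.00565). PHO89 changed by -0.91 (adjusted p = 0.0174), a call lost without the first array at 0 min (adjusted p = 0.0781) or the second at 20 min (0.0695).

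In the pbf2 deletion 4 of the 10 genes fell and 0 rose, where 30.1% and 48.4% of all genes did. An unadjusted p under 0.05 was reached by 4 of the 10, and by 4288 of all 5395 genes. PHO5 went from 4286, 3656 and 4074 to 644, 555 and 582, a log2 change of -2.75 (adjusted p = 2.07e-14). The other falls were PHO3 at -2.39, VTC3 at -1.17 and PHO89 at -1.14 (adjusted p = 0.00402). PHO84, at -0.17 (adjusted p = 0.0749), was at -0.22 (0.046) without the third array at 0 min and at 0.25 (0.0116) after quantile normalization.

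In the double deletion 6 of the 10 genes fell and 0 rose, where 30.9% and 48.5% of all genes did. An unadjusted p under 0.05 was again reached by 6 of the 10, and by 4340 of all 5395 genes. PHO5 went from 1007, 1035 and 858 to 270, 235 and 231. This strain started low and ended lower, with a log2 change of -1.98 (adjusted p = 2.79e-12). PHO3 changed by -2.34 and VTC3 by -1.52. PHO80 went from 446, 453 and 392 to 272, 297 and 279, so that its ranges parted, and fell by 0.60 on the log2 scale (adjusted p = 1.43e-07).

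PHO84 went from 8447, 8331 and 8043 to 7026, 6969 and 5445 in the double deletion, with every array after the shift below those before it. Its log2 change was -0.36 (adjusted p = 0.000629), and -0.05 (adjusted p = 0.58) after quantile normalization. PHO81 changed by -0.42 (adjusted p = 0.0277), from 1458, 1389 and 787 to 837, 968 and 830, so its ranges overlapped. That call was lost without the first (adjusted p = 0.187) or second (0.149) array at 0 min, or the first (0.0732) or the third (0.0773) at 20 min.

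The third double deletion culture stood apart at 0 min. Its array was the lowest of the 24 for PHO89 (314), PHO8 (1639) and SPL2 (1760). It was also the lowest of the 0 min arrays for PHO81 (787), PHO3 (1065), PHO5 (858), PHO80 (392), PHO84 (8043) and VTC3 (4833). For PHO4 (445) it was not the lowest. Of the 24, this array also had the lowest median signal (453), the highest background (11.6) and the lowest share of genes above background (96.7%). Without it the heat shock change in the double deletion was -1.19 for PHO89 (adjusted p = 0.000317), -0.35 for SPL2 (adjusted p = 0.0029) and -0.70 for PHO81; with it PHO89 was at -0.63 and SPL2 at -0.17, neither of which passed. PHO89 also passed without the first array at 20 min (-0.83, adjusted p = 0.0474), and PHO8, at 0.12, without the second array at 0 min (0.27, adjusted p = 0.0403).

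The next comparison asks what the phosphate genes do at 25 °C when PBF1 and PBF2 are missing. Before heat shock, 4 of the 10 genes were lower in the double deletion than in BY4741 (PHO5, PHO89, PHO3 and SPL2) and 0 were higher. Of all genes tested, 16% were lower and 8.47% higher. The median log2 difference was -0.22 over the 10 genes and -0.05 over all genes. Without both arrays of the third double deletion culture 2 of the 10 were lower (PHO5 and PHO89) and 1 was higher (PHO4 at 0.49, adjusted p = 0.024).

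PHO5 carried the clearest difference. The double deletion read 1007, 1035 and 858, against 4079, 3190 and 4019 in the wild type, so its highest array was more than 3 times below the lowest wild type array. The log2 difference was -1.96 ± 0.12, or 3.88-fold (adjusted p = 2.73e-10). It was the 16th lowest of the 5395 differences in this comparison, and it passed under every alternative, between -2.07 and -1.61.

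PHO89 read 1346, 752 and 314 in the double deletion and 2312, 1660 and 1647 in the wild type. The groups did not overlap, but the double deletion cultures differed from each other more than 4-fold. The difference was -1.44 ± 0.33 (adjusted p = 0.00385), and -0.88 (adjusted p = 0.0186) without the third array. This SE uses a spread shared by all 8 groups. The log2 standard deviation at 0 min was 1.06 in the double deletion and 0.28 in the wild type.

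PHO3 read 1278, 1082 and 1065 in the double deletion against 1846, 1505 and 1740, with no overlap. Its difference of -0.57 ± 0.20 was close to the threshold (adjusted p = 0.0444) and missed it when any 1 of the 6 arrays was left out (adjusted p = 0.0518 to 0.124). SPL2 read 2381, 2733 and 1760 against 2618, 3016 and 3053, so the ranges overlapped. Its difference of -0.36 ± 0.12 (adjusted p = 0.0290) was -0.18 (adjusted p = 0.19) without the third double deletion array, and it also missed the threshold without the second (adjusted p = 0.0928) or the third (0.107) wild type array.

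The other 6 genes did not pass at 0 min. PHO84 differed by -0.09, with a 95% interval of -0.27 to 0.09, and VTC3 by -0.17 (-0.36 to 0.03). PHO4 differed by 0.28 (-0.08 to 0.64), a value of 0.49 (adjusted p = 0.0408) without the third double deletion array.

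After 20 min at 37 °C more of the set was lower in the double deletion: 6 of the 10 genes, and 0 higher. At this time 32.4% of all genes were lower and 20.9% higher. The medians were -0.51 over the 10 genes and -0.09 over all genes. Without the third double deletion culture the count was 6 lower and 1 higher, PHO8 at 0.25 (adjusted p = 0.043).

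PHO5 read 270, 235 and 231 in the double deletion against 768, 618 and 769, again with no overlap. The difference was -1.55 ± 0.12, or 2.92-fold (adjusted p = 1.03e-09), and passed under every alternative, between -1.65 and -1.34. PHO89 read 577, 416 and 354 against 1310, 955 and 1377, and differed by -1.45 ± 0.33, or 2.73-fold (adjusted p = 0.00109). These phosphatase and transporter genes were thus lower in the double deletion at both times.

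SPL2 read 2273, 1999 and 1778 against 3155, 3677 and 3723 at 20 min, and differed by -0.81 ± 0.12 (adjusted p = 6.33e-06). PHO80 read 272, 297 and 279 against 481, 466 and 424, and differed by -0.69 ± 0.07 (adjusted p = 8.75e-08). For each gene the groups did not overlap at 20 min, whereas both genes had overlapped at 0 min. PHO80 then read 446, 453 and 392 against 490, 478 and 445.

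VTC3 read 2168, 1994 and 1537 against 2608, 2637 and 2871 at 20 min, and differed by -0.52 ± 0.09 (adjusted p = 6.95e-05). PHO84 read 7026, 6969 and 5445 against 9094, 8960 and 9073, and differed by -0.49 ± 0.09 (adjusted p = 6.49e-05). In both genes every double deletion array was below every wild type array, and the third culture was the lowest. After spike-in centring PHO5 was the 1 gene of these 6 that still passed, with PHO89 at -1.24 (adjusted p = 0.0548), and at 0 min PHO5 was the 1 gene of the 4.

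**Figure D3:**
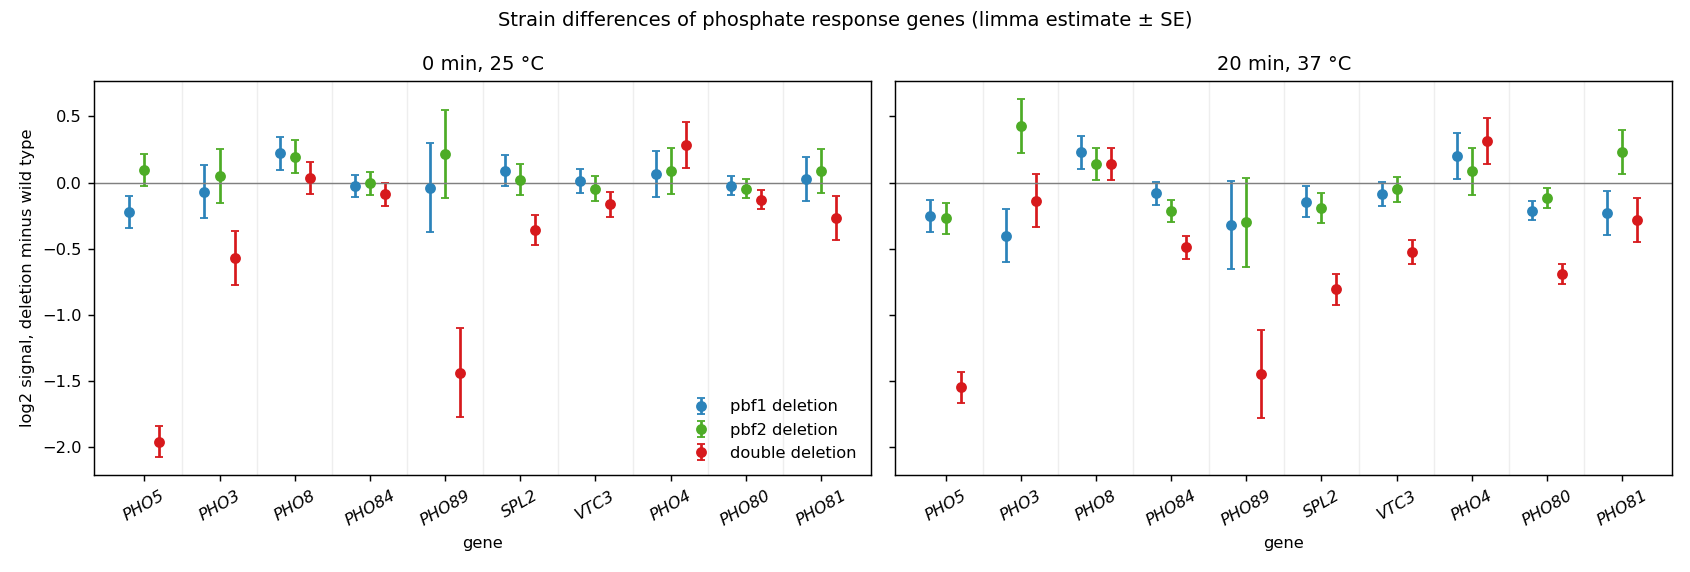
Log2 difference of each deletion strain from the wild type for the 10 genes, at 0 min and at 20 min. Bars are ± SE from the limma fit. PHO5 and PHO89 in the double deletion lie between -1.96 and -1.44 at both times, and the single deletions lie between -0.40 and 0.43.

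In the single deletions, 0 of the 10 genes passed against the wild type at either time. At 0 min limma called 0.111% of all genes in the pbf1 deletion and 0.241% in the pbf2 deletion. At an unadjusted p under 0.05 there were 0 of the 10 genes in either strain, against 414 and 312 of all 5395 genes. For PHO5 the 95% interval of the difference was -0.47 to 0.03 in the pbf1 deletion and -0.15 to 0.34 in the pbf2 deletion. For PHO89 it was wider, at -0.74 to 0.66 and -0.48 to 0.91, so differences of this size were not detectable with 3 cultures.

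At 20 min limma called 0.63% of all genes in the pbf1 deletion and 13.3% in the pbf2 deletion. In the pbf1 deletion 2 of the 10 genes had an unadjusted p under 0.05, PHO80 at -0.21 (adjusted p = 0.226) and PHO5 at -0.25 (adjusted p = 0.457). In the pbf2 deletion 3 did: PHO3 at 0.43 (adjusted p = 0.175), PHO5 at -0.27 (adjusted p = 0.145) and PHO84 at -0.22 (adjusted p = 0.103). Of all 5395 genes tested, 583 had an unadjusted p under 0.05 in the pbf1 deletion and 1489 in the pbf2 deletion. With the replicate number as a block across strains, PHO3 (adjusted p = 0.0132) and PHO5 (0.0461) passed in the pbf2 deletion.

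Comparisons of the double with each single deletion, and of the double with the sum of the single effects, were added after the values had been seen. At 0 min 3 of the 10 genes were lower in the double than in the pbf1 deletion, where 5.13% of all genes were, and 4 were lower than in the pbf2 deletion, where 17.8% were. Each count was 2 without the third double deletion culture, 2 with the hybridization controls and 0 after spike-in centring. Without the third pbf1 deletion array the first count was 1, and without the second pbf2 deletion array the other was 2.

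PHO5 differed at 0 min by -1.73 from the pbf1 deletion and by -2.05 from the pbf2 deletion, and of the alternatives run these calls were lost only after spike-in centring (-1.64, adjusted p = 0.0505, and -1.47, adjusted p = 0.0963). PHO89 differed by -1.40 (adjusted p = 0.0114) and -1.65 (adjusted p = 0.00117). Without the third double deletion array the PHO89 differences were -0.84 and -1.09, and both still passed. The one from the pbf1 deletion was lost without the first (adjusted p = 0.055) or the third (0.0503) pbf1 deletion array and with only the groups compared in the fit (0.122), and both were lost after spike-in centring (0.388 and 0.298).

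At 20 min 6 genes were lower than in the pbf1 deletion (28% of all genes) and 8 lower than in the pbf2 deletion (30.1%). After spike-in centring both counts were 0, and the 8 became 5 with the hybridization controls and 6 without the third double deletion culture. Among the 8, PHO3 (-0.56, adjusted p = 0.0251) lost its call without the first (0.118) or the second (0.059) pbf2 deletion array and without the second (0.07) or the third (0.121) double deletion array. PHO84 (-0.27, adjusted p = 0.0111) was at -0.15 (0.11) without the third double deletion array.

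The departure from additivity is the double deletion's log2 difference from the wild type minus both single differences. At 0 min it passed for PHO5 alone of the 10, where 2.26% of all genes were lower. It was -1.83 ± 0.17 (adjusted p = 8.26e-07). PHO89, at -1.61 (adjusted p = 0.0742), passed without the first double deletion array (-2.1, adjusted p = 0.00375) and with the replicate number as a block (0.0346), and SPL2, at -0.47 (0.159), passed without the second (-0.61, adjusted p = 0.0351).

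At 20 min the departure passed for 4 of the 10 genes, where 15.1% of all genes were lower: PHO5 at -1.03 (adjusted p = 0.00021), SPL2 at -0.47 (0.0378), VTC3 at -0.38 (0.0330) and PHO80 at -0.36 (0.0129). With the hybridization controls PHO5 alone passed, and after spike-in centring 0 of the 10 did at either time, with PHO5 at -1.5 and -0.89 (adjusted p = 0.944 and 1.0). PHO5 and PHO80 passed without any 1 array. SPL2 lost its call without the first wild type array, the second or the third pbf1 deletion array, any pbf2 deletion array, or the second or the third double deletion array at 20 min (adjusted p = 0.0576 to 0.103). VTC3 lost its call without the first or the second wild type array, the first pbf1 deletion array, the second or the third pbf2 deletion array, or the third double deletion array at 20 min (adjusted p = 0.0584 to 0.0882).

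Ordered by geometric mean, PHO5 was highest at 0 min in the pbf2 deletion (3996), the wild type (3740) and the pbf1 deletion (3207), neighbours whose ranges overlapped. The double deletion at 0 min (963) stood apart below them and above the wild type at 20 min (714). The pbf1 deletion (600) and the pbf2 deletion (592) at 20 min overlapped with their neighbour above, and the double deletion at 20 min (244) stood apart at the bottom. For PHO89 every neighbour in the order overlapped, from 2147 in the pbf2 deletion at 0 min to 440 in the double deletion at 20 min.

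The last comparison asks whether the heat shock change itself differed between strains, tested as an interaction of strain and time. Against the wild type, 0 of the 10 genes passed in the pbf1 deletion, where 0% of all genes did, and 0 passed in the pbf2 deletion, where 1.71% did. At an unadjusted p under 0.05 there were 0 genes for the pbf1 deletion and 1 for the pbf2 deletion, PHO5 at -0.37 (adjusted p = 0.312). Over all 5395 genes there were 183 and 813. In the double deletion 4 of the 10 genes passed and 0 of these were higher, where 12.8% of all genes had a lower and 15% a higher change. The medians were -0.01 over the 10 genes and -0.0049 over all genes.

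PHO80 gave the largest of these differences, -0.56 ± 0.10 (adjusted p = 0.000339). Its change within a culture was -0.03, -0.04 and -0.07 in the wild type and -0.71, -0.61 and -0.49 in the double deletion, with no overlap. The call held without any 1 array, but it missed the threshold after centring on the hybridization controls (-0.53, adjusted p = 0.0717) and on the spike-in controls (-0.70, adjusted p = 1.0).

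PHO84 changed by -0.02, 0.09 and 0.05 within the wild type cultures and by -0.27, -0.26 and -0.56 within those of the double deletion. The difference of -0.40 ± 0.12 passed (adjusted p = 0.0166), and without the third double deletion array at 20 min it was -0.28 (adjusted p = 0.0503). It also missed the threshold with the hybridization controls (-0.37, adjusted p = 0.188) and the spike-in controls (-0.54, adjusted p = 1.0). SPL2 changed by 0.27, 0.29 and 0.29 in the wild type and by -0.07, -0.45 and 0.01 in the double deletion, a difference of -0.45 ± 0.16 (adjusted p = 0.0466).

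VTC3 changed by -1.24, -1.20 and -1.06 in the wild type and by -1.43, -1.48 and -1.65 in the double deletion, a difference of -0.36 ± 0.13 (adjusted p = 0.0452). Both calls were lost after centring on either set of control probes, and in 8 of the 12 fits that left out 1 array of these groups. For SPL2 the arrays were the first or second of either strain at 0 min and the second or the third of either strain at 20 min (adjusted p = 0.0541 to 0.15). For VTC3 they were any wild type array at 0 min, the first or second double deletion array at 0 min, the second or the third wild type array and the third double deletion array at 20 min (adjusted p = 0.0579 to 0.135). PHO5 had a smaller fall in the double deletion, by 0.41 ± 0.17, which did not pass (adjusted p = 0.0775). It passed with the replicate number as a block across strains (adjusted p = 0.0202), with a pseudocount of 16 (0.046), and without the second wild type array at 0 min (0.0257).

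Of 33 further genes of the phosphate pathway, 30 had a probe set and were tested. After heat shock in the wild type 9 of the 30 rose, where 51% of all genes did, 11 fell, where 29.7% did, and 10 gave no call; the median log2 change was 0.03 for the 30 and 0.27 over all genes. The largest rises were in PHM7, a membrane protein gene of the phosphate regulon, and PHM8, a phosphatase of lysophosphatidic acid and nucleotides. PHM7 read 34.3, 24.1 and 34.1 at 0 min and 482, 591 and 644 at 20 min, a log2 change of 4.22 ± 0.17 (adjusted p = 4.36e-15). PHM8 read 276, 276 and 342 and then 3483, 3947 and 4363, a log2 change of 3.72 ± 0.15. These genes rose while PHO5 and VTC3 fell on the same arrays.

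GIT1, the glycerophosphoinositol permease, rose by 1.89 on the log2 scale, and PHO87, a low-affinity phosphate transporter, by 1.19. PHO90, the other low-affinity transporter of the plasma membrane, moved the opposite way, from 1570, 1383 and 1368 to 429, 274 and 253 (log2 change -2.22, adjusted p = 1.63e-09). PHO11, an acid phosphatase gene of the same family as PHO5, read 9090, 8376 and 8907 and then 1570, 1109 and 1119 (log2 change -2.81, adjusted p = 7.57e-14). Its probe set is of the kind that Affymetrix marks as shared by similar transcripts, so its value may cover its near-identical copy.

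The polyphosphate genes VTC2 and VTC4, whose products join Vtc3 in the same complex, changed by -1.19 ± 0.14 and -1.15 ± 0.12 in the wild type. VTC3 itself changed by -1.16, so the 3 subunit genes had similar values. In the pbf1 deletion 12 of the 30 genes rose and 14 fell, where 51.2% and 30.4% of all genes did. In the pbf2 deletion 9 rose and 15 fell (48.4% and 30.1% of all genes), and in the double deletion 10 and 14 (48.5% and 30.9%). PHM7 and PHM8 led the rises in each of these strains, at 4.50 and 3.83, 3.88 and 3.29, and 2.91 and 4.51; the third was GIT1 in the pbf2 deletion, at 1.59.

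PHO92, an RNA-binding protein gene, also rose in the pbf1 and double deletions. It was below background on all 0 min arrays of these strains, so its rise there was at least 2.33-fold and 1.92-fold, with no rank among the rises (adjusted p = 0.000279 and 0.00882), taken against each array's background. PHO11, PHO90 and PHM6, a phosphate-regulated gene of unknown function, led the falls in the 3 deletion strains: PHO11 by -3.05, -3.02 and -3.22, PHO90 by -2.44, -1.82 and -2.42, and PHM6 by -1.70, -1.49 and -1.56, in the order pbf1, pbf2 and double deletion.

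**Figure D4:**
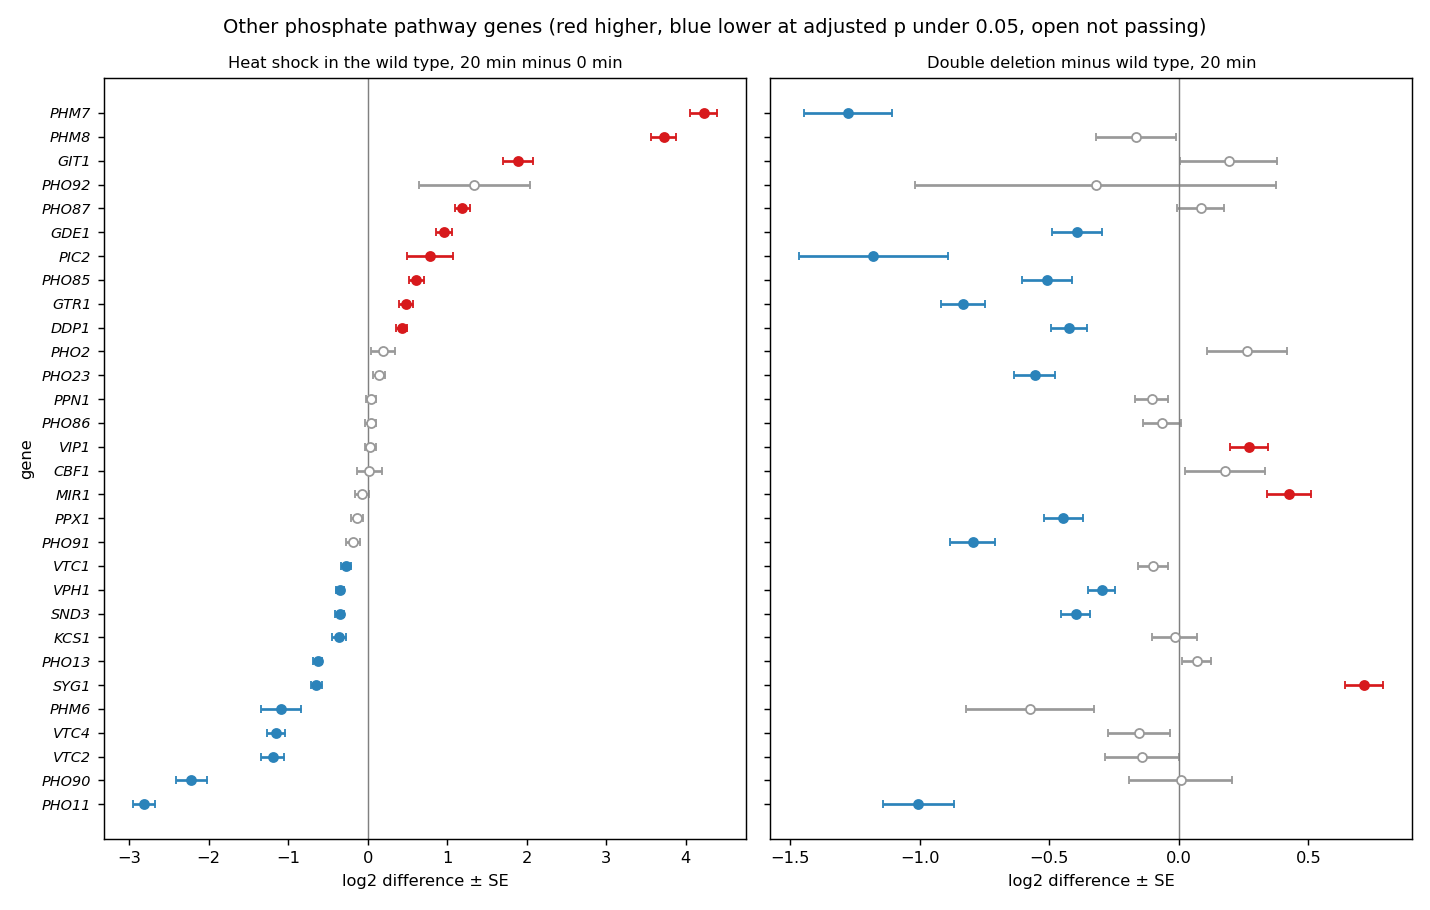
Log2 differences (± SE) of the 30 further phosphate pathway genes. The left panel shows heat shock in the wild type, from PHO11 at -2.81 to PHM7 at 4.22. The right panel shows the double deletion minus the wild type at 20 min, from PHM7 at -1.28 to SYG1 at 0.71. Red is higher and blue lower at an adjusted p under 0.05, and open symbols did not pass.

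Against the wild type at 0 min, the double deletion had 4 of these 30 genes higher, where 8.47% of all genes were, and 8 lower, where 16% were. GIT1 was higher by 0.67 (adjusted p = 0.0131), PHO87 by 0.38 (0.00462), and MIR1, the mitochondrial phosphate carrier, by 0.29 (0.0168). PHM8 differed by -0.95 (adjusted p = 0.000175), with 156, 143 and 162 against 276, 276 and 342. PHO11 differed by -0.60 (adjusted p = 0.00325), with 5923, 5691 and 5802 against 9090, 8376 and 8907. In both genes the groups did not overlap, as for PHO5. GTR1, a GTPase gene of the TORC1 pathway first linked to phosphate uptake, differed by -0.33 (adjusted p = 0.00728).

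At 20 min 3 of the 30 were higher and 12 lower, where 20.9% and 32.4% of all genes were. SYG1, a membrane protein gene with the SPX domain typical of phosphate signalling, was higher by 0.71 (adjusted p = 7.11e-08), MIR1 by 0.43 and the inositol pyrophosphate kinase gene VIP1 by 0.27 (adjusted p = 0.00369). PHM7 read 198, 212 and 306 against 482, 591 and 644, a difference of -1.28 (adjusted p = 2.3e-06). PIC2, a mitochondrial carrier of phosphate and copper, differed by -1.18 (adjusted p = 0.00162) and PHO11 by -1.0 (2.87e-06).

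The heat shock change of 7 of the 30 genes differed between the double deletion and the wild type, 2 upwards and 5 downwards, where 15% and 12.8% of all genes did. PHM8 differed by 0.78 (adjusted p = 0.0105) and SYG1 by 0.44 (0.00338). PHM7 differed by -1.31 (adjusted p = 0.000345), the vacuolar phosphate transporter gene PHO91 by -0.79 (7.6e-05) and GTR1 by -0.50 (0.00377).

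In the single deletions 2 of the 30 genes passed against the wild type, both in the pbf2 deletion at 20 min. In that comparison 13.3% of all genes passed. The 2 were SYG1 at 0.46 (adjusted p = 0.000463) and SND3, which an older symbol lists as PHO88, at -0.28 (adjusted p = 0.00247). In the pbf1 deletion 0 of the 30 passed at 0 min and 0 at 20 min, where 0.111% and 0.63% of all genes did. At an unadjusted p under 0.05 there were 3 and 6, against 414 and 583 of all 5395 genes. In the pbf2 deletion 0 passed at 0 min, where 0.241% of all genes did. At an unadjusted p under 0.05 there was 1, against 312 of all 5395 genes. The tests of a different heat shock change gave 0 of 30 in either single deletion, with 2 at an unadjusted p under 0.05 in each. Of all genes, 0% passed in the pbf1 deletion and 1.71% in the pbf2 deletion. At an unadjusted p under 0.05 there were 183 and 813 of the 5395.

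For 4 of the genes, those whose log2 signals ran most alike over the 24 arrays were found by Pearson correlation, as a description; the arrays share strains, times and cultures. PHO5 was most like the cell wall mannoprotein gene TIR1 (r = 0.972) and the a-agglutinin genes AGA2 (0.962) and AGA1 (0.959). PHO84 was most like UME6 (r = 0.868), NRD1 (0.847) and AIM29 (0.837). PHO89 was most like YAR066W (r = 0.876), THO1 (0.865) and RMA1 (0.860), and SPL2 was most like IOC4 (r = 0.904), PSF1 (0.861) and SNF6 (0.852).

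The log2 heat shock ratios in the authors' deposited table were close to those above for the steep changes. For PHO5 the authors' deposited table gives -2.50 in the wild type, -2.54 and -2.82 in the pbf1 and pbf2 deletions and -2.27 in the double deletion. For PHO80 the authors' deposited table gives -0.17, -0.30, -0.28 and -0.83 in the same order. The calls differ for PHO89 and SPL2 in the wild type. For PHO89 the authors' deposited table gives -0.72 with a false discovery rate of 0.0, whereas the fall did not pass above. For SPL2 the authors' deposited table gives 0.30 with a false discovery rate of 0.0094. That rate is above the authors' cutoff of 0.0001, whereas the SPL2 rise passed above. For PHO84 the authors' deposited table gives 0.31 in the wild type and -0.16 in the double deletion. In the pbf1 and pbf2 deletions the authors' deposited table gives 0.22 and 0.21 for PHO84. The fit of the scaled signals gave -0.02 and -0.17 there, of the opposite sign. The false discovery rate of the wild type value was 0.00144, above the authors' cutoff of 0.0001. That wild type value lies between the 0.04 of the scaled signals and the 0.39 of the quantile-normalized ones.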

How the data were processed

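Total RNA of 24 samples was hybridised to 1-colour Affymetrix Yeast 2.0 arrays. The authors deposited MAS5 signals, intensities on a linear scale, per the submitters' processing notes; the 2% trimmed mean was 500.263 to 500.399 on every array. A second table deposited by the authors gives log2 ratios of 20 over 0 min and, for the wild type, a false discovery rate (q-value), made per its accompanying text from images extracted with GeneChip Operating Software 1.4. Its 3 other rate columns share 1 name and were not used.

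The signals were taken to log2 with no pseudocount. Of 10928 probe sets, the platform annotation gives 7244 a single gene symbol, 1 several and 3683 none; symbols were updated through the gene ID. For the 47 genes with several probe sets the one with the highest mean log2 signal was used. Of 5449 genes, 5395 had a mean log2 signal above 2.35, the 90th percentile of 1746 probe sets for another yeast. One fit over all 8 groups (limma 3.58.1 in R 4.3.3, eBayes with trend, 16 residual degrees of freedom) gave all comparisons, and p-values were adjusted over the 5395 genes by Benjamini-Hochberg. Counts of 0 came from limma only, the 1 tool run. The fit was tested on simulated data. Of the 33 further pathway genes, named by a rule on the largest changes (4 rises and 4 falls for the wild type heat shock, 3 and 3 otherwise), PHO12, VTC5 and PPN2 had no probe set in the annotation used here. The 10 genes, the lists and the tests were chosen with earlier results of these data known.

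No 2 arrays held identical values. The labels divide each culture between the times; residuals of the 12 pairs from the same culture correlated by -0.041 to 0.186 (median 0.057), with a fitted within-culture correlation of 0.071. Residuals of arrays that shared a replicate number across strains correlated by up to 0.646 (median 0.093). Alternatives covered scaling, the filter, a pseudocount, the prior, the arrays in the fit, the culture block and each array left out. No sequence is printed, and coordinates were not used here.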

Additional observations from a re-analysis of the deposited data

Results flagged for a closer look

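The heat shock change of 4 of the 10 genes differed between the double deletion and the wild type by the interaction test in limma. The log2 difference was -0.56 for PHO80, -0.45 for SPL2, -0.40 for PHO84 and -0.36 for VTC3, and each passed at an adjusted p of 0.05 in the fit of all arrays. Over all genes, 12.8% had a lower and 15% a higher change. All 4 calls were lost after centring on the hybridization controls or on the spike-in controls. PHO80 kept its call when any 1 array was left out, PHO84 in all but 1 such fit, and SPL2 and VTC3 lost theirs in 8. The URA3 signal of the double deletion cannot be told apart from these differences.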

How the results depend on the processing

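The falls of PHO3, PHO5 and VTC3 in each strain, and the lower PHO5 of the double deletion at both times, kept their direction and their call under all alternatives. Scaling mattered most: the median log2 change of all genes with heat shock in the wild type was 0.27 as deposited, 0.08 after median centring, 0.04 after quantile normalization, -0.04 with the hybridization controls and -0.74 with the spike-in controls. The numbers of genes called higher and lower there were 2752 and 1600, 2308 and 1973, 2171 and 2015, 1766 and 2020, and 313 and 2177. With spike-in centring they were 262 and 2801 in the pbf1 deletion (2763 and 1640 as reported), 342 and 1543 in the pbf2 deletion (2611 and 1624) and 280 and 2722 in the double deletion (2615 and 1667). The double deletion against the wild type had 636 higher and 644 lower at 0 min after median centring (457 and 862), 270 and 48 at 20 min after spike-in centring (1130 and 1750), and 625 and 1019 for the difference in response after median centring (809 and 689). The pbf2 deletion at 20 min had 399 and 441 after median centring (466 and 249) and 311 and 18 with the hybridization controls. Quantile normalization and the hybridization controls gave 2157 and 2085, and 1894 and 1990, for heat shock in the pbf1 deletion; 2023 and 2111, and 1727 and 1926, in the pbf2 deletion; 2001 and 2194, and 1785 and 2074, in the double deletion; and 446 and 523, and 220 and 250, for the double deletion against the wild type at 0 min. Median centring gave 2070 and 2068 for heat shock in the pbf2 and 1977 and 2282 in the double deletion, and the hybridization controls 1082 and 862 for the double deletion at 20 min.

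Of the 10 genes, those changed by heat shock in the wild type numbered 5 as reported, 8 after quantile normalization, 9 after spike-in centring and 3 to 5 with 1 array left out. In the pbf1 deletion 6 became 10 and in the double deletion 6 became 10 after spike-in centring, and in the pbf2 deletion 4 became 7 after median centring, 7 after quantile normalization and 7 with the hybridization controls. Those lower in the double deletion at 0 min numbered 4, against 1 with the spike-in and 2 with the hybridization controls and 2 to 3 with 1 array left out; at 20 min 6 became 1 with the spike-in controls. The 4 differences in response became 0 with either control set, 2 without the trend, 2 with only the groups compared in the fit, and 1 to 4 with 1 array left out. For the pbf2 deletion at 20 min 0 became 1 after quantile normalization, 1 with only the groups compared, and 0 to 1 with 1 array left out.

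After spike-in centring the log2 heat shock change turned to -0.99 (PHO8), -0.96 (PHO84) and -0.72 (SPL2) in the wild type, -1.21 (PHO8) and -1.18 (SPL2) in the pbf1 deletion and -1.03 (PHO8) in the double deletion, and SPL2 in the double minus the pbf2 deletion at 0 min to 0.20. SPL2 turned to -0.03 with the hybridization controls, and quantile normalization turned PHO84 to 0.34 in the pbf1 and 0.25 in the pbf2 deletion. The cause was not tested.

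The culture block changed no count of the 10 genes. The replicate number as a fixed block across strains, an alternative chosen after seeing the data, moved the pbf2 deletion at 20 min from 0 to 2 genes, the difference in response of the double deletion from 4 to 6 and the pbf2 heat shock from 4 to 5; the labels do not say that a number links strains.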

Other observations

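At 20 min the PHO3 signal was highest on the first array in each of the 4 strains: 346 of 346, 202 and 217 in the wild type, 258 of 258, 170 and 150 in the pbf1 deletion, 398 of 398, 337 and 275 in the pbf2 deletion, and 284 of 284, 214 and 188 in the double deletion. PIC2, a mitochondrial carrier gene, was lowest on the first array and highest on the third in each strain at 0 min, with 675, 1051 and 1594 in the wild type. This was noticed after the values were seen and was not tested.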
